A study of Arabidopsis thaliana with 18 samples.

Results

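Jasmonates are lipid hormones that plants make from linolenic acid released from plastid membranes. The early steps run in the plastid and the later ones in the peroxisome, where the side chain is shortened by β-oxidation, and the active hormone is a conjugate of jasmonic acid with isoleucine. It lets the receptor COI1 remove JAZ repressors from transcription factors of the MYC family, and in flowers it is best known for filament growth, anther opening and pollen maturation. The gene studied in this series carries the name LEJ1 for a loss of the timing of ethylene and jasmonate synthesis. Transcript levels were examined here for 6 genes of this pathway: OPCL1 (AT1G20510) and AIM1 (AT4G29010) of synthesis, JMT (AT1G19640) of hormone modification, MYC3 (AT5G46760) and MYC4 (AT4G17880) of the response machinery, and THI2.1 (AT1G72260), a response gene. They are all probe sets that the platform annotation assigns to 1 gene only among these loci, 1 probe set per gene, out of 22810 on the array.

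RNA came from flowers of Arabidopsis thaliana plants 5 weeks old and was hybridised to Affymetrix ATH1 arrays, each array holding a single sample. The genotypes were wild type (WT), 1 line in which the 35S promoter of cauliflower mosaic virus drives AtLEJ1 (OE), and the lej1 mutant, which the sample titles call KO. The 35S promoter is known to be active in most plant tissues, and where this line expresses the transgene was not analysed here. Each genotype was sampled as unopened buds (stages 1 to 12, before the anthers open) and as open flowers (stages 13 to 14), which gives 6 groups of 3 arrays, 18 in all, labelled as biological replicates. Values are linear intensities, and differences are on the log2(intensity + 16) scale with the SE from limma, a linear model fitted to all 6 groups. A difference was called when its adjusted p (limma, Benjamini-Hochberg over 15113 probe sets) was under 0.05.

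All 6 genes were bright enough to be tested. Each lay above the 40th percentile of its array on all 18 arrays, apart from MYC4, which did so on 17. Array medians ran from 202 to 232. As a sign of RNA integrity, 3' probe sets of actin, GAPDH and ubiquitin exceeded their 5' probe sets by 1.54 to 2.02 on the log2 scale, and all 6 groups overlapped. The stages differed in other cell types as well. The summed intensity of 4 genes of the tapetum, the nurse tissue inside the anther, ran from 16749 to 25757 on bud arrays and from 36.4 to 1323 on arrays of open flowers. In open flowers this sum ran from 54 to 308 in WT, from 36.4 to 332 in OE and from 69.8 to 1323 in KO. These ranges overlapped, and each highest sum came from the array of replicate 1. In open KO flowers ATA27 alone read 908 on that array, against 41.6 and 178 on the others. Of the 4, A9 differed most clearly between open KO and WT flowers (1.71 ± 0.46, unadjusted p = 0.0015 in limma), but no marker was called between genotypes. The summed intensity of 4 mature pollen genes overlapped between the stages, at 2549.5 to 4466 and 2557 to 3756, but its members moved in opposite directions. In each genotype ANX2 and TUA1 were called higher in open flowers (log2 difference 2.45 ± 0.33 and 1.29 ± 0.16 in WT), SWEET5 was called lower (-4.66 ± 0.27 in WT, from 2056 ± 211 to 67.7 ± 21.5) and ANX1 was not called. The part of these cell types in the stage and genotype differences below was not tested. In whole flowers, a change in the number of cells of a type and a change in RNA per cell cannot be told apart. Markers of floral organ identity and of leaf, and the level of LEJ1 itself, were not analysed here, so neither the organ labels nor the genotype labels were checked with them. Sample titles and source names give the same genotype on all 18 arrays, but the free-text description calls every sample unopened wild-type flowers, which goes against the titles of 15 arrays.

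Between buds and open flowers, THI2.1 and AIM1 rose in all 3 genotypes, OPCL1 fell in OE, and MYC4 rose in WT by a call that barely passed. In WT 3 of the 6 members were called, all higher in open flowers, where 23.4% of all tested probe sets were called and 12.3% were higher. In OE 3 of 6 were called, 2 higher and 1 lower, against 31.1% of all probe sets (14.3% higher and 16.9% lower). In KO 2 of 6 were called, both higher, against 20.9% of all probe sets and 11.1% in that direction. The median log2 stage difference of the 6 was 0.39 in WT, 0.44 in OE and 0.37 in KO, and over all tested probe sets it was -0.04, -0.08 and -0.03. The share of all probe sets whose groups did not overlap between the stages is not given here. Where arrays of single genes are said below not to overlap between stages, this only describes the arrays.

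OPCL1, the ligase that activates a jasmonate precursor with coenzyme A in the peroxisome so that β-oxidation can start, had its low point in open OE flowers. Its intensity was 218, 303 and 286 there (replicates 1 to 3), against 365, 489 and 509.7 in OE buds. In WT it read 436, 337 and 476 in buds and 434, 439.8 and 314 in open flowers, and in KO 493, 573 and 473 in buds and 379, 546 and 471 in open flowers. All 3 arrays of open OE flowers thus lay below all 15 others, while the other 5 groups overlapped with each other along the order of their means, from 513 ± 52.7 (SD, n = 3) in KO buds to 396 ± 71.2 in open WT flowers.

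From buds to open flowers OPCL1 fell in OE by 0.72 on the log2 scale (SE 0.19, adjusted p = 0.00652 in limma), which is 1.65-fold lower. The groups did not overlap, so the difference was negative in all 3 replicate numbers under any pairing of arrays. The call held in all 16 alternatives, where the adjusted p reached 0.0392. In WT the stage difference was -0.07 ± 0.19 and in KO -0.15 ± 0.19, neither called (adjusted p = 0.840 and 0.689). The difference of the stage effects, OE minus WT, was -0.65 ± 0.26 with a 95% interval from -1.21 to -0.09, and it did not pass over all probe sets (unadjusted p = 0.025, adjusted p = 0.494). The fall in OE is therefore not shown to differ from the stage effect in WT.

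AIM1 encodes a multifunctional protein of peroxisomal β-oxidation, a hydratase and dehydrogenase that serves fatty acids as well as the jasmonate side chain. In WT its intensity was 2656, 2526 and 2946 in buds and 4548, 3998 and 4408 in open flowers. OE gave 2205, 2548 and 2589.9 in buds and 5059.7, 4088 and 4431 in open flowers. KO gave 2587, 3692 and 2394 in buds and 4018, 4158 and 4013 in open flowers. Every array of open flowers was higher than every bud array, and within a stage the 3 genotypes overlapped.

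The log2 stage difference of AIM1 was 0.67 ± 0.14 in WT (1.59-fold, adjusted p = 0.00156), 0.88 ± 0.14 in OE (1.84-fold, adjusted p = 0.000104) and 0.51 ± 0.14 in KO (1.43-fold, adjusted p = 0.0132). The calls in WT and OE held in all 16 alternatives, while that in KO was lost in 4 of 16. The adjusted p was 0.0850 when KO_buds replicate 3 was left out, 0.0613 when KO_buds replicate 1 was left out, 0.0720 with only the 2 KO groups in the fit and 0.0807 with replicates 2 and 3 alone. The KO_buds array of replicate 2, at 3692, was the one that stood highest among the buds. The stage effect differed from that of WT by 0.21 (95% interval -0.21 to 0.63) in OE and by -0.16 (-0.58 to 0.27) in KO, and neither difference was called (adjusted p = 0.823 and 1).

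THI2.1, a thionin, is a small antimicrobial peptide whose gene is a classic target of methyl jasmonate. It was among the brightest probe sets of open flowers, ranking 4 to 18 of 22745 there and 171 to 295 in buds. In WT it read 8917, 8358 and 7194 in buds and 19039.7, 19536 and 19126 in open flowers. In OE the values were 8832, 9266 and 7881 in buds and 23851, 26289 and 23512 in open flowers. In KO they were 7446, 8319.7 and 9759 in buds and 21077, 20695 and 18418 in open flowers. The bud groups overlapped, all arrays of open flowers lay above all bud arrays, and the 3 arrays of open OE flowers were the highest of all.

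THI2.1 rose 2.36-fold in WT (log2 difference 1.24 ± 0.11, adjusted p = 1.66e-07), 2.83-fold in OE (1.50 ± 0.11, adjusted p = 1.53e-08) and 2.37-fold in KO (1.24 ± 0.11, adjusted p = 2.06e-07). These calls held in all 16 alternatives of each comparison. The stage effect in OE exceeded that in WT by 0.26, with a 95% interval from -0.08 to 0.60 (adjusted p = 0.690), and that in KO differed from WT by 0.00 (-0.34 to 0.34). Whether signals this high are compressed by the range of the scanner was not tested.

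MYC3 and MYC4 are basic helix-loop-helix transcription factors that JAZ repressors bind and that act beside MYC2 on jasmonate-responsive genes. MYC3 was the steadiest of the 6 genes. Its intensity stayed between 392 and 618 on all 18 arrays, a 1.58-fold range, and the 6 group means ran from 415 ± 20.3 (OE buds) to 555 ± 55.9 (open KO flowers), with each group overlapping the next in order. Between the stages its arrays overlapped in WT and KO but not in OE, at 392 to 428 in buds and 447 to 503 in open flowers. Its stage differences were 0.12 ± 0.14 in WT, 0.16 ± 0.14 in OE and 0.22 ± 0.14 in KO, none called (adjusted p = 0.620, 0.414 and 0.337). The 95% intervals reached 0.41, 0.45 and 0.51 at their upper ends.

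MYC4 varied more, over a 4.92-fold range of intensities. In WT it read 257, 87.5 and 143 in buds and 430.4, 279 and 223 in open flowers, and the groups overlapped. OE gave 203, 184 and 135 in buds and 401, 328 and 189 in open flowers, and KO 254, 139 and 166 in buds and 332, 239 and 241 in open flowers. Open flowers were higher than buds of the same replicate number in all 3 numbers of every genotype. The 3 bud means, from 163 ± 86.7 (SD, n = 3) to 186 ± 60.1, lay below the 3 means of open flowers, from 271 ± 52.9 to 311 ± 107.

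Of these stage differences of MYC4 only that in WT was called, by a narrow margin (log2 difference 0.94 ± 0.33, 1.91-fold, adjusted p = 0.0498). Leaving out 1 array moved the difference between 0.60 (without WT_buds replicate 2) and 1.30 (without WT_buds replicate 1). The call was lost in 10 of 16 alternatives. Among these, the adjusted p was 0.249 when WT_buds replicate 2 was left out, 0.122 for WT_buds replicate 3, 0.207 for WT_open replicate 1 and 0.0815 for WT_open replicate 2. In OE the difference was 0.71 ± 0.33 (adjusted p = 0.115), and in KO 0.53 ± 0.33 (adjusted p = 0.332). With the replicate number as a block, MYC4 was called in OE as well (adjusted p = 0.0122), and the value was 0.00214 in WT and 0.0792 in KO.

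**Figure D1:**
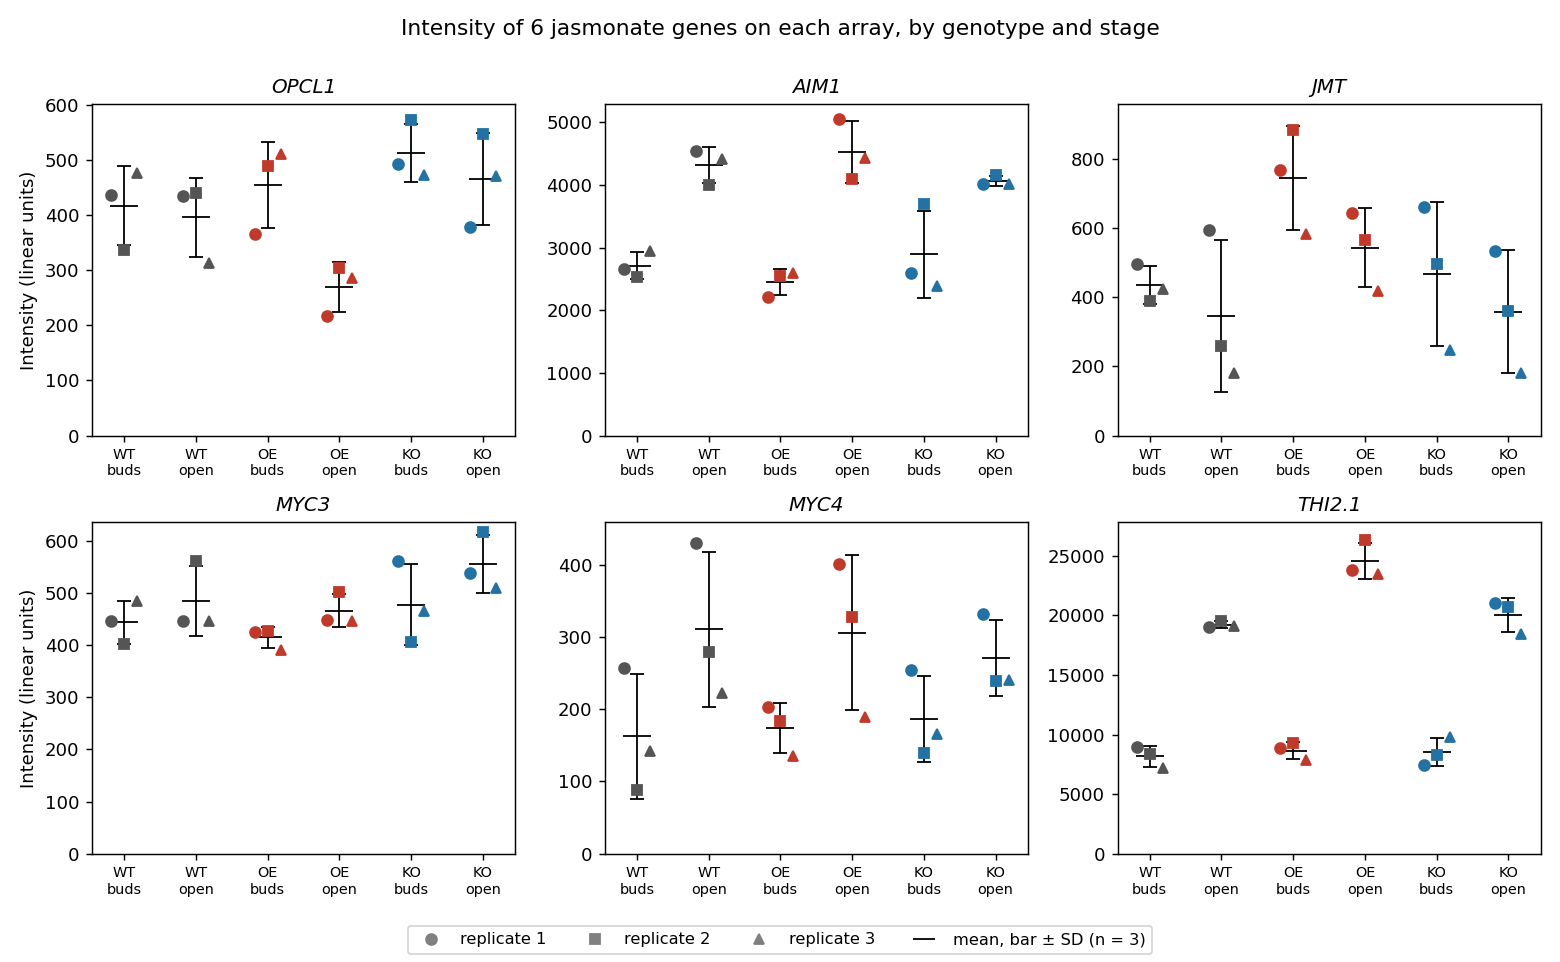
Intensity (linear units, axes from 0) of each gene on each of the 18 arrays, with WT in grey, OE in red and KO in blue, marker shape for the replicate number, and black bars for the mean ± SD of 3 arrays. For AIM1 and THI2.1 the arrays of open flowers lie above those of buds in every genotype, and OPCL1 is lowest in open OE flowers.

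JMT encodes the methyltransferase that turns jasmonic acid into volatile methyl jasmonate. Its group mean was highest in OE at each stage, but arrays spread widely within groups and no difference between genotypes was called. OE buds read 767, 885 and 584, above all 3 arrays of WT buds at 495, 389 and 423. Open OE flowers read 644, 567 and 419, against 595, 259.7 and 180.2 in open WT flowers, and these groups overlapped. KO gave 661, 497 and 247 in buds and 535, 359.9 and 181 in open flowers, which overlapped with both other genotypes. The group means ran from 745 ± 151 in OE buds to 345 ± 220.4 in open WT flowers (SD, n = 3), and every neighbouring pair of groups in that order overlapped.

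Between the stages JMT was not called in any genotype. The log2 differences were -0.49 ± 0.40 in WT (adjusted p = 0.449), -0.45 ± 0.40 in OE (0.432) and -0.39 ± 0.40 in KO (0.601). Within replicate numbers the difference was negative in 2 of 3 in WT and in 3 of 3 in OE and in KO. Single arrays moved these values by more than 1.5 times. In WT the difference ran from -0.95 without WT_open replicate 1 to -0.13 without WT_open replicate 3, in OE from -0.61 without OE_buds replicate 3 to -0.28 without OE_open replicate 3, and in KO from -0.77 without KO_buds replicate 3 to 0.02 without KO_open replicate 3. The 95% intervals, -1.33 to 0.35 in WT, -1.29 to 0.39 in OE and -1.23 to 0.45 in KO, hold a fall, no change and a rise.

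**Figure D2:**
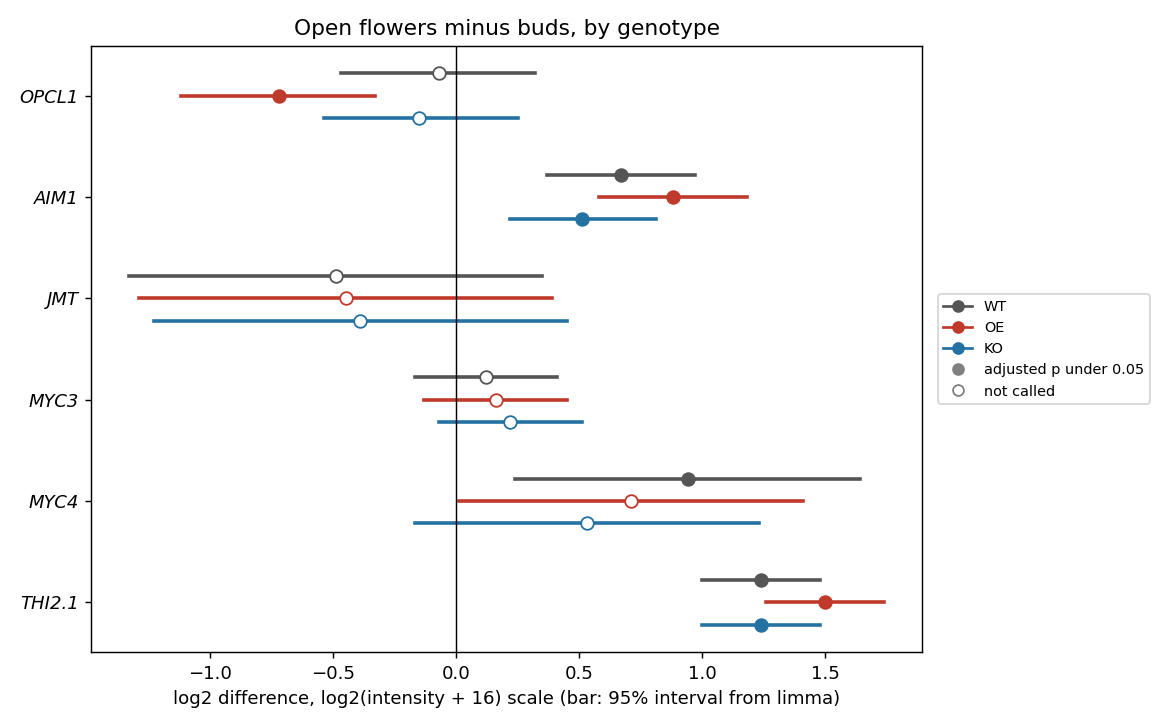
Log2 difference of open flowers minus buds for each gene, by genotype, with bars for the 95% interval from limma and filled points for an adjusted p under 0.05. THI2.1 and AIM1 are called in all 3 genotypes, OPCL1 in OE and MYC4 in WT, and the intervals of JMT and MYC3 include 0.

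Overexpression of LEJ1 was compared with WT at each stage, which addresses the question in the title of the series, the transcriptional changes that AtLEJ1 induces. None of the 6 genes was called in buds, where 0.146% of all tested probe sets were called, and none in open flowers, where 0.682% were called. At an unadjusted p under 0.05 there were 0 of 6 members in buds and 2 of 6 in open flowers, OPCL1 and THI2.1, against 5.69% and 10.0% of all probe sets. The groups did not overlap for 1 member in buds (JMT) and for 2 in open flowers (OPCL1 and THI2.1), and over all probe sets the shares were 10.7% and 13.4%.

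OPCL1 in open OE flowers averaged 269 ± 45.2 against 396 ± 71.2 in WT (SD, n = 3). The log2 difference was -0.53 ± 0.19, or 1.44-fold lower, with an unadjusted p of 0.011 and an adjusted p of 0.293 in limma. By replicate number it was -0.95, -0.51 and -0.13, negative in each, which follows from groups that did not overlap. In buds the difference was 0.12 ± 0.19 (adjusted p = 0.999).

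THI2.1 averaged 24551 ± 1515 in open OE flowers and 19234 ± 265 in WT, a log2 difference of 0.35 ± 0.11 or 1.27-fold (unadjusted p = 0.0071, adjusted p = 0.248 in limma). It was positive in all 3 replicate numbers, at 0.32, 0.43 and 0.30, which also follows from groups that did not overlap. With quantile normalization it was 0.24 (adjusted p = 0.530). In buds the difference was 0.09 ± 0.11, within its standard error.

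JMT was higher in OE than in WT in every replicate number at both stages, which in buds follows from groups that did not overlap. In buds the log2 difference was 0.74 ± 0.40 (1.67-fold, 95% interval -0.10 to 1.58, adjusted p = 0.926), and by replicate number it was 0.61, 1.15 and 0.45. In open flowers it was 0.78 ± 0.40 (1.72-fold, -0.06 to 1.62, adjusted p = 0.543), with 0.11, 1.08 and 1.15. Neither difference passed in any of 16 alternatives, although leaving out 1 array moved that in open flowers between 0.42 (without WT_open replicate 3) and 1.24 (without WT_open replicate 1). AIM1, MYC3 and MYC4 differed from WT by -0.15 to 0.19 in OE buds and by -0.05 to 0.06 in open OE flowers. The interval of MYC4 in open flowers, from -0.73 to 0.67, is wide enough to hold a 1.5-fold change in either direction, while that of AIM1 ran from -0.24 to 0.36.

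In the mutant none of the 6 genes was called against WT. That holds for most of the array, since 0.00662% of probe sets were called in buds and 0.0132% in open flowers, and no member had an unadjusted p under 0.05 at either stage (2.84% and 3.36% of all probe sets). No member separated KO from WT at either stage (6.85% and 7.83%). The log2 differences ran from 0.00 (JMT) to 0.30 (OPCL1) in buds and from -0.16 (MYC4) to 0.23 (OPCL1) in open flowers, with adjusted p of 1 throughout. OPCL1 lay above WT by 0.30 ± 0.19 in buds (95% interval -0.10 to 0.69) and by 0.23 ± 0.19 in open flowers (-0.17 to 0.62). By replicate number the latter was -0.19, 0.30 and 0.56, and it was 0.07 without WT_open replicate 3, so no direction is read from it. The KO and OE comparisons share the same WT arrays.

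OE and KO were also set directly against each other. In open flowers OPCL1 averaged 269 ± 45.2 in OE and 465 ± 84.1 in KO, and the log2 difference was -0.75 ± 0.19, or 1.69-fold lower in OE. It was -0.76, -0.82 and -0.69 by replicate number. The adjusted p in limma was 0.0518, just short of the threshold (unadjusted p = 0.00082), and 0.0207 with the replicate number as a block. Without the KO_open array of replicate 1 it was called (adjusted p = 0.0362), and without that of replicate 3 the adjusted p was 0.189. The array medians of these groups did not overlap, at 202 to 207 in open OE flowers and 218 to 225 in open KO flowers. With median centring the log2 difference of OPCL1 was -0.64, and with quantile normalization -0.66. In this comparison 1.52% of all probe sets were called, 0 of 6 members among them, and the groups did not overlap for 3 of 6 members against 21.2% of all probe sets. These were OPCL1, THI2.1 (0.29 ± 0.11, adjusted p = 0.205) and MYC3 (-0.24 ± 0.14, adjusted p = 0.394). Scaling moved the latter 2 as well. Over 16 alternatives THI2.1 ran from 0.14 to 0.40 and MYC3 from -0.30 to -0.13, with no call. The adjusted p in limma was 0.612 for THI2.1 with quantile normalization and 0.682 for MYC3 with median centring. In buds no member was called (0.205% of all probe sets) and no member separated the groups (9.06%). JMT differed there by 0.74 ± 0.40 (95% interval -0.10 to 1.58), and leaving out 1 array moved this between 0.35 (without KO_buds replicate 3) and 1.03 (without KO_buds replicate 1). In open flowers its difference between OE and KO was 0.68 ± 0.40 (-0.16 to 1.52), from 0.28 without KO_open replicate 3 to 1.02 without KO_open replicate 1.

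**Figure D3:**
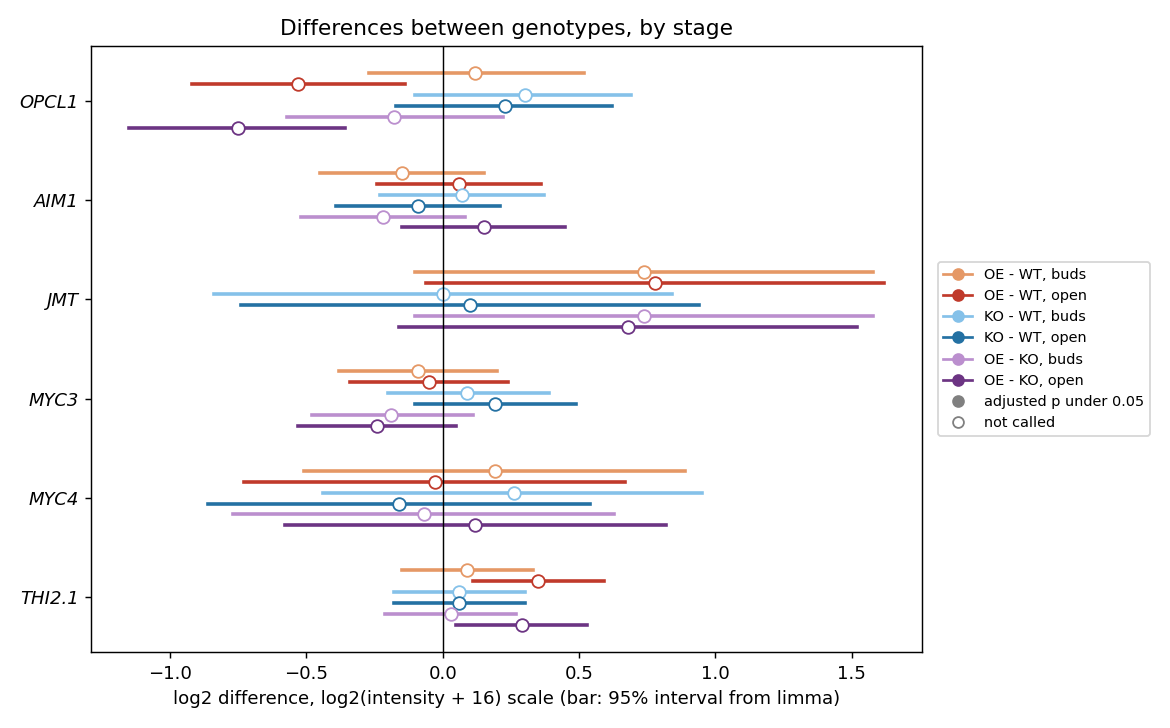
Log2 differences between genotypes for each gene at each stage, with bars for the 95% interval from limma, and open points because none was called. OPCL1 in open flowers lies below 0 for OE against both other genotypes, and the intervals of JMT are the widest.

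The stage effect was also compared between genotypes for all 6 genes. Between OE and WT, 0 of 6 differences were called (0.179% of all probe sets), and 1, that of OPCL1, had an unadjusted p under 0.05 (8.60% of all probe sets). Between KO and WT, 0 of 6 were called and none had an unadjusted p under 0.05 (0% and 0.959% of all probe sets).

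JMT and MYC4 also varied with the replicate number. MYC4 was highest on the array of replicate 1 in 6 of 6 groups, and its mean log2 deviation from the group mean was 0.44 in replicate 1, -0.17 in replicate 2 and -0.27 in replicate 3. JMT was highest in replicate 1 in 5 of 6 groups, with mean deviations of 0.45, 0.05 and -0.50. For OPCL1, AIM1, MYC3 and THI2.1 these mean deviations stayed within -0.11 to 0.10. After each group mean was removed, JMT and MYC4 correlated at r = 0.65 over the 18 arrays, the largest of the 15 pairs of members, a description over arrays that share replicate numbers. The sign of RNA integrity moved with the same number. Its log2 ratio of 3' to 5' probe sets ran from 1.54 to 1.78 on the arrays of replicate 1, the lowest of the group in 4 of 6 groups, against 1.70 to 1.99 for replicate 2 and 1.65 to 2.02 for replicate 3. Its part in the levels of JMT and MYC4 was not tested. What the replicate numbers stand for is not given in the sources used here.

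**Figure D4:**
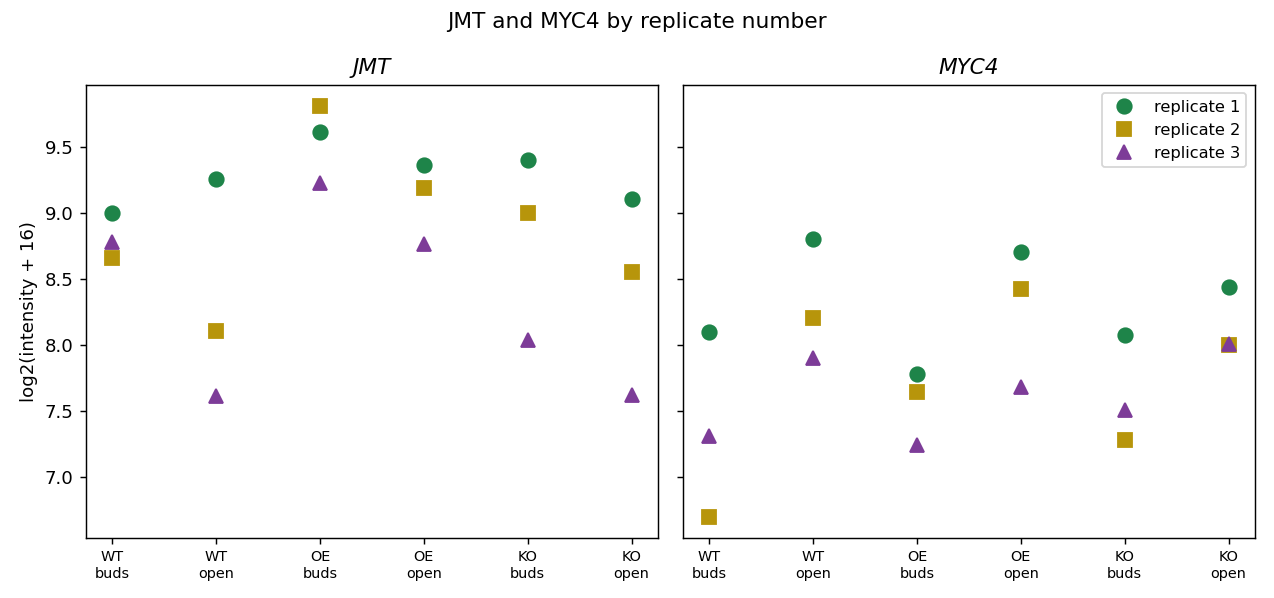
Log2(intensity + 16) of JMT and MYC4 on each array, with shape and colour for the replicate number. Replicate 1 is the highest array in all 6 groups for MYC4 and in 5 of 6 for JMT.

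Over the 18 arrays the stage pattern joined AIM1 and THI2.1 (r = 0.87), and MYC4 followed both (r = 0.61 and 0.69). OPCL1 correlated negatively with AIM1 and THI2.1 (r = -0.41 and -0.54), but its stage difference was called in OE only. In WT and KO that difference was within its SE (-0.07 ± 0.19 and -0.15 ± 0.19). With the group means removed, AIM1 and THI2.1 gave r = -0.36, so their likeness lay in the differences between groups. Among 8172 other tested probe sets of 1 gene, the patterns most like THI2.1 were those of LCR80, a gene for a small cysteine-rich protein, and AT1G64370 (r = 0.986 and 0.985). AIM1 was followed by AT5G20390 and AT5G53320 (r = 0.938 and 0.932), and MYC4 by AT2G28200 and AT1G55280 (r = 0.945 and 0.906). For OPCL1 the nearest were AT3G60980 and AT3G12860 (r = 0.851 and 0.847), for JMT AT3G26000 and AT2G18480 (0.833 and 0.820), and for MYC3 AT2G23300 and AT1G17680 (0.754 and 0.746). These correlations share stage, genotype and array, and carry no test.

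Of 69 further jasmonate genes listed, 9 have a probe set of their own in the annotation used, and 4 of those were bright enough to test. They were JOX2, JOX3 (named JRG21 in the annotation) and JOX4, oxygenases that inactivate jasmonic acid by hydroxylation, and THI2.2, a second thionin. Not tested were DGL, a lipase gene, JOX1, the transcription factor gene ORA47 and the defensin genes PDF1.2 and PDF1.2b, whose group means lay between 2.45 and 92.9. The other 60, among them genes of the oxygenase and cyclase steps, COI1, the JAZ repressors and MYC2, were not analysed here.

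Of the 4 tested genes 1 was lower in open WT flowers, 1 higher and 1 lower in open OE flowers, and 1 higher and 1 lower in open KO flowers, each against buds of the same genotype. Over all probe sets 23.4%, 31.1% and 20.9% were called. THI2.2 was the gene called lower in each genotype, but it entered the test through bud arrays alone, being above the 40th percentile of the array on 2 arrays of WT buds, 1 of OE buds, 1 of KO buds and none of open flowers. Its intensity went from 178 ± 78.2 to 14.8 ± 10.3 in WT (SD, n = 3; log2 difference -2.63 ± 0.56, adjusted p = 0.00151), from 107 ± 86.0 to 13.0 ± 8.75 in OE (-1.75 ± 0.56, adjusted p = 0.0225) and from 114 ± 68.6 to 11.7 ± 7.32 in KO (-2.14 ± 0.56, adjusted p = 0.00879). A gene kept for being high in buds is open to such a difference by the filter itself, although the 3 calls were also made with no filter. OE buds replicate 2 read 15.3, within the 7.19 to 23.1 of open OE flowers. The sizes depend on the pseudocount, with -3.65 in WT, -2.52 in OE and -3.16 in KO for a pseudocount of 1, and -1.58, -1.01 and -1.17 for 64. The call in OE was lost in 4 of 14 alternatives, all of them with 1 array left out. These were OE_buds replicate 1 (adjusted p = 0.139) or 3 (0.0923) and OE_open replicate 1 (0.0710) or 2 (0.0638). That in KO was lost in 1 of 14, when KO_buds replicate 3 was left out (0.0618).

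JOX3 rose in KO from 155 ± 70.9 in buds to 457 ± 96.9 in open flowers (log2 difference 1.54 ± 0.32, adjusted p = 0.00139). In WT it read 201 ± 98.2 and 319 ± 109.7, and in OE 179 ± 16.6 and 169 ± 29.4. In open flowers its 3 OE arrays read 203, 155 and 149, below the 3 KO arrays at 379, 426 and 565. This difference between OE and KO was called (-1.35 ± 0.32, adjusted p = 0.0417, and 0.00505 with a replicate block). The call was lost in 10 of 16 alternatives, among them median centring (adjusted p = 0.0548) and quantile normalization (0.0703). All 6 fits that left out 1 array also lost it, with an adjusted p from 0.0510 to 0.203.

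JOX4 rose in OE from 279.7 ± 104 to 506 ± 56.8 (0.88 ± 0.22, adjusted p = 0.00457), and JOX2 was not called in any comparison, with group means from 647 to 843. None of the 4 genes was called between OE or KO and WT at either stage, or in the comparison of stage effects.

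**Figure D5:**
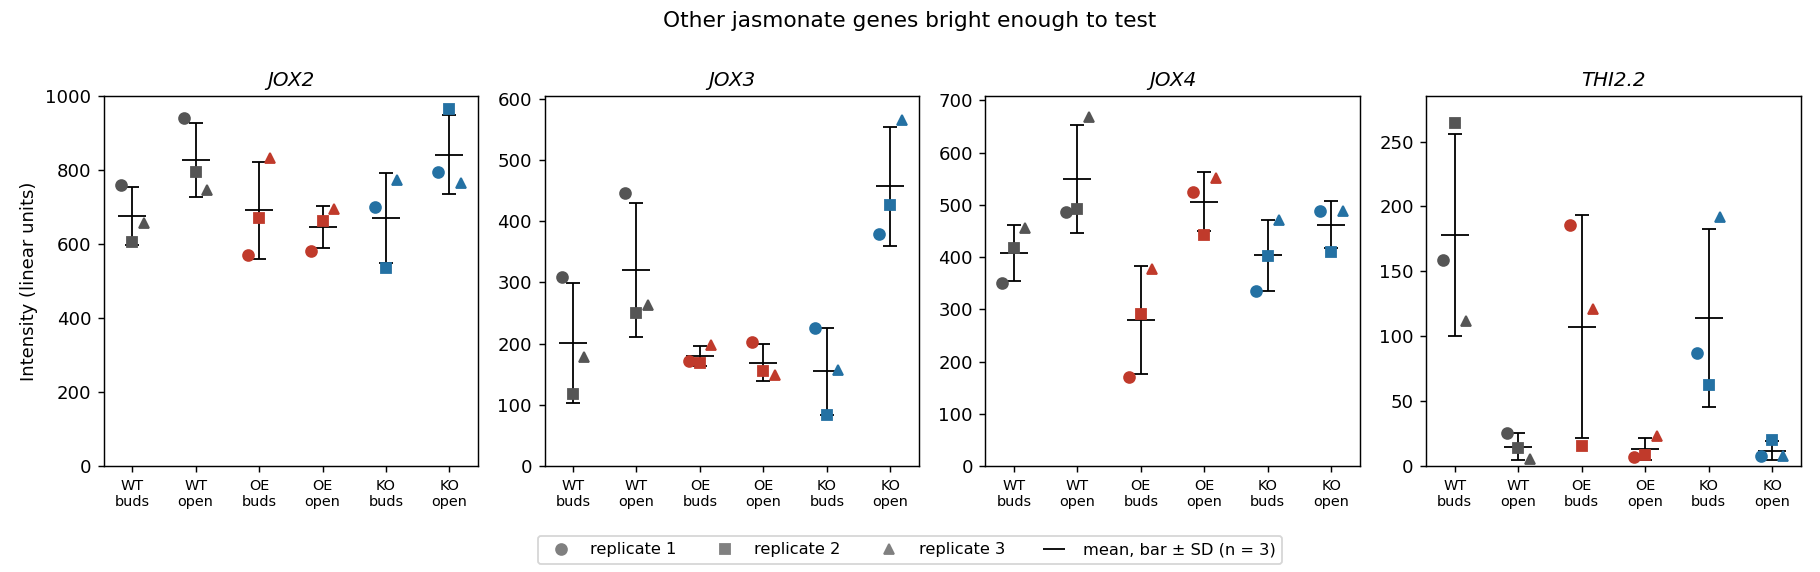
Intensity (linear units, axes from 0) of the 4 other jasmonate genes that were tested, on each array, with black bars for the mean ± SD of 3 arrays. THI2.2 is low in all open flowers, and JOX3 in open flowers is higher in KO than in OE.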

How the data were processed

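The authors hybridised biotinylated cRNA from 5 µg of total RNA to ATH1 arrays, per the labels' protocols. As deposited, each probe set has a single linear intensity on each array. Which software and scaling produced it is not given in the sources used here. On every array the mean between the 2nd and 98th percentile was 499.82 to 499.85, so arrays had been scaled to a common level. Groups and replicate numbers were read from the sample titles. The source names give the same genotypes, while the description of every sample, and the growth protocol of the 12 OE and KO arrays, name wild type.

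Computed here were log2(intensity + 16) and group means with limma 3.58.1 in R 4.3.3 (12 residual degrees of freedom, intensity trend in the variance prior, statmod 1.5.0 for the robust fit). Tested were 15113 probe sets above the 40th percentile of their array on at least 3 arrays. Left out were 64 control probe sets, 1 with an empty cell and 7632 dim ones. In all, 11 comparisons were made, each adjusted over all tested probe sets. The fit was tested on simulated data. Plots were made in Python 3.11.15 with matplotlib 3.10.9. For arrays the number of replicates limits the precision.

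Same-numbered arrays of the groups compared deviated together from their group means (correlations across probe sets from 0.106 to 0.599, against -0.488 to 0.356 for arrays of different numbers), so the replicate number was taken to pair arrays, which no label states. Deviations from a group mean cancel out within the group. A positive correlation of same numbers therefore lowers those of different numbers, which are no separate reference. The pairing rests mainly on replicate 1, whose arrays correlated at 0.318 to 0.599 with each other and at -0.488 to -0.094 with other numbers. Same-numbered arrays of replicates 2 and 3 gave 0.106 to 0.39, and replicate 2 with 3 gave 0.016 to 0.356. Scored from the first-named group of each comparison, an array correlated best with its own number in 9 of 9 cases for replicate 1. For replicate 2 this held in 9 of 9 and for replicate 3 in 3 of 9. These counts depend on the direction. Scored from the second-named group, WT_open replicate 2 correlated at 0.356 with KO_open replicate 3 and at 0.318 with KO_open replicate 2. No contrast between replicates 2 and 3 is read from the counts. The main model has no block, and the blocked value stands beside a result where it changes the call. Alternatives were other pseudocounts (1 and 64), no filter, median centring, quantile normalization, a replicate block, other variance priors, only the groups compared, replicates 2 and 3 alone, and each array left out. The members, the further jasmonate genes and the marker lists were chosen with earlier results of these data known. Named by rule were the members, the called further jasmonate genes and, for each member, the 2 most similar probe sets of 1 gene.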

Additional observations from a re-analysis of the deposited data

How the results depend on the processing

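Of the 66 differences of the 6 genes over 11 comparisons, 33 were larger than their SE, and none of these changed sign in 546 fits under other settings. They were picked by size in the same arrays that these fits reuse, so the stable sign is no separate support. The other 33 lay within 1 SE of 0, and no direction is read from them: they changed sign in 76 of 582 fits, by values of at most 0.32, and were called in none. For open OE against open KO flowers, the count of called members was 0 and became 1 (OPCL1) with a pseudocount of 64, with a replicate block and with a robust variance prior. Leaving out 1 array gave 0 to 1 there. For open WT flowers against WT buds, the count was 3 and became 2 (MYC4 was lost) in 10 of 16 alternatives, among them both other pseudocounts and no filter. For open KO flowers against KO buds, the count was 2 and became 1 (AIM1 was lost) with only the groups compared in the fit and with replicates 2 and 3 alone, and leaving out 1 array gave 1 to 2. The paired fit with a replicate block otherwise added MYC4 in OE between the stages (adjusted p = 0.0122 in limma) and changed no other call of the 6 genes.

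The number of probe sets called over the whole array, the background of the counts above, moved more. With a replicate block it went from 22 to 71 for OE buds against WT buds, from 103 to 236 for open flowers of the same genotypes, from 31 to 61 and from 230 to 827 for OE against KO in buds and open flowers, and from 27 to 109 for the stage effect of OE against WT. The lowest counts under other settings were 9, 39, 9, 78 and 12 in the same order. For KO against WT the counts were 1 to 2 in buds, 2 to 8 in open flowers and 0 to 1 for the stage effect. The cause of these shifts was not tested. The replicates number 3 per group, and MYC4 and JMT, which spread most, have 95% intervals wide enough to hide a change of the size that AIM1 showed between the stages of WT (0.67).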
